A study of Mus musculus with 6 samples.

Results

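miR-142 is a microRNA of blood cells, and all reads of its hairpin, from both arms and with every 5′ start, were followed here in bone marrow monocytes (BMMs) of wild type C57BL/6 mice. The cells were cultured from murine bone marrow and received either PBS (Control) or, for 4 h, 5 pg/ml LPS, the endotoxin that Gram-negative bacteria carry on their surface. Each group held 3 samples. Apart from the LPS, both groups shared genotype, strain and culture. The labels name DMEM as the medium where the study's methods name RPMI. Reads of at least 18 nt were taken as miR-142 when they matched the mouse hairpin Mir142 exactly, with up to 3 unmatched bases allowed at the 3′ end. This gave 406 distinct read sequences, of which 205 lay on the 5p arm and 201 on the 3p arm. They were out of 22220 on the 1174 annotated hairpins used here and out of 738360 in the whole series. The samples held 78829, 49096 and 67914 miR-142 reads in Control replicates 1 to 3 and 97264, 282625 and 41971 in LPS replicates 1 to 3. None of these sequences was shared with another arm.

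A microRNA is cut from the stem of a hairpin by the nucleases Drosha and Dicer, which leaves a duplex of one strand from the 5′ side (5p) and one from the 3′ side (3p). One strand is loaded into an Argonaute protein and finds its target mRNAs mainly by its seed, the bases 2 to 8 counted from its 5′ end. A read that begins at another base, a 5′ isomiR, therefore carries another seed. miR-142 is made throughout the haematopoietic lineages and is nearly absent from other tissues, and it is known for roles in the development and function of lymphocytes, dendritic cells, mast cells and platelets.

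The hairpin Mir142 (ENSMUSG00000105196.1) lies at chr11:87756864-87756927 on the plus strand of GRCm38 (GENCODE M21), is 64 nt long and sits in the intron of the long non-coding gene Mir142hg, between the exons at chr11:87755577-87755613 and chr11:87757039-87757270. The hairpin Mir142b (ENSMUSG00000065420.2) is annotated on the opposite strand at chr11:87756841-87756955. Positions below refer to the 64-nt hairpin, with its first 5′ base as 1. The 2 mature sequences of RefSeq (GRCm38.p6), shown first as the reference for each start, cover positions 4 to 24 and 40 to 62. Capitals mark the seed in every sequence printed here.
mmu-miR-142a-5p: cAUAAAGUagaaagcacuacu
mmu-miR-142a-3p: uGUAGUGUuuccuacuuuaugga

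The reads that carried most of each arm are printed next, as read and thus with T, because the report turns on where they begin and end. For 5p these were a form that starts at the RefSeq base (position 4) and a form that starts 2 bases earlier, which ended at either of 2 places.
5p, positions 4 to 24: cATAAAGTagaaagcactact
5p, positions 2 to 21: cCCATAAAgtagaaagcact
5p, positions 2 to 23: cCCATAAAgtagaaagcactac
For 3p they were a form that starts 3 bases after the RefSeq base and ends with the hairpin, and forms that start at positions 40 and 41. The last line is the one that stood out in a single LPS sample.
3p, positions 43 to 64: aGTGTTTCctactttatggatg
3p, positions 40 to 62: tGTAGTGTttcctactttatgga
3p, positions 41 to 62: gTAGTGTTtcctactttatgga
3p, positions 41 to 63: gTAGTGTTtcctactttatggat
3p, positions 40 to 61: tGTAGTGTttcctactttatgg

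The libraries held 2201520 to 17691405 reads, of which 61.6% to 71.0% lay on hairpins. LPS replicate 2 stood apart: it was the deepest library, and sequences read a single time made up 18.6% of its distinct sequences, as compared with 67.1% to 74.6% elsewhere. The tests of levels, start variants and shares below are therefore also given without it. Control and LPS samples numbered 1 resembled each other more than samples of 1 group did, and so did those numbered 3. The chi-square per degree of freedom of their counts over arms was 6.51 and 4.68, against 64.9 to 1412 for pairs within a group and 674 for the samples numbered 2. No pair agreed within sampling noise. The labels do not say whether the samples came from separate mice, so p-values measure only the spread between these samples.

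miR-142 was among the most read miRNAs of these BMMs, and most of its reads came from the 5p arm. Levels are given as RPM, reads per 1000000 reads on hairpins, and since each read is a whole small RNA they need no length correction. miR-142-5p stood at 27085, 24697 and 24052 RPM in the Control samples and at 26914, 18107 and 23281 in the LPS samples. By its mean share it ranked 9 among 973 arms with reads, and its rank within a sample ran from 7 to 13. miR-142-3p stood at 3741, 3950 and 4656 RPM in the Control samples and at 3780, 7757 and 4722 in the LPS samples, which ranked it 30. Together the arms took 2.59% to 3.08% of all hairpin reads of a sample. As a comparison, miR-223-3p, which marks myeloid cells, held 5607 to 6089 RPM, and miR-21a-5p, abundant in macrophages, held 122795 to 164339 RPM.

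The groups overlapped in both arms, and the sample that set the LPS mean apart was LPS replicate 2, which had the lowest 5p level and the highest 3p level of the 6. In the replicate 1 and replicate 3 samples, Control and LPS lay close together on both arms.

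**Figure D1:**
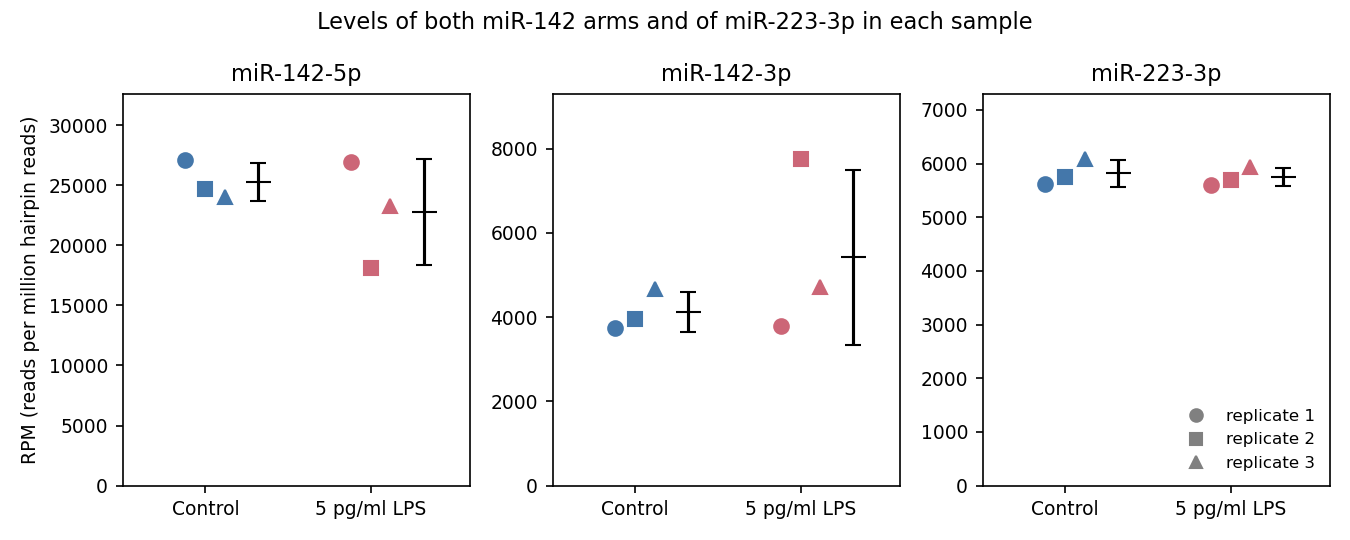
Level of miR-142-5p, miR-142-3p and, for comparison, miR-223-3p in each sample, in RPM (linear axes from 0). Symbols mark the replicate number, and the bar beside each group is its mean ± SD (n = 3). LPS replicate 2 (square) had 18107 RPM of miR-142-5p and 7757 of miR-142-3p, outside the range of the other 5 samples on both arms, while its miR-223-3p lay within it.

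Whether super-low-dose LPS altered the level of miR-142 was tested with edgeR's quasi-likelihood test over all 319 arms that passed its count filter. miR-142-5p averaged 25278 ± 1598 RPM in Control and 22768 ± 4426 in LPS (SD, n = 3), a log2 fold change of -0.18 (SE 0.19, 95% interval -0.62 to 0.27, edgeR adjusted p = 0.994). miR-142-3p averaged 4116 ± 480 and 5419 ± 2078 RPM, a log2 fold change of 0.37 (SE 0.26, 95% interval -0.25 to 1.00, edgeR adjusted p = 0.994). Neither arm passed the threshold of 0.05, and neither did any other arm: 0.0% were called higher and 0.0% lower. At an unadjusted p under 0.05 edgeR named 7 arms higher (2.19%) and 1 lower (0.313%), none of them from miR-142, and DESeq2 and limma-voom likewise called 0 arms at the adjusted threshold. The level ranges of the groups did not overlap in 10 arms (3.13%), again without miR-142.

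Without LPS replicate 2 the LPS means were 25098 RPM for 5p and 4251 for 3p, and the log2 fold changes were -0.055 and -0.0039. The 3p interval then ran from -0.31 to 0.30. With the replicate number as a replicate block, the paired log2 fold changes were -0.19 for 5p and 0.31 for 3p, and no arm was called. With the block and pair 2 left out, an alternative added after the data were seen, they were -0.029 and 0.017, and the 3p interval ran from -0.079 to 0.11. LPS replicate 2 exceeded the mean of the other 5 samples by 0.90 on the log2 scale in miR-142-3p and was below it in miR-142-5p, at -0.48. Of the 319 arms, with the arm itself counted, 53 were as far or farther from that mean as miR-142-3p and 125 as miR-142-5p. The difference of miR-223-3p was -0.025.

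The balance of the arms moved with the same sample. miR-142-5p gave 7.24, 6.25 and 5.17 reads for each 3p read in the Control samples and 7.12, 2.33 and 4.93 in the LPS samples. LPS replicate 3 also gave fewer than any Control sample. LPS replicate 2 lay farthest from the others, with 30.0% of its miR-142 reads on the 3p arm against 12.1% to 16.9%. The log2 ratio of 3p to 5p was -2.62 ± 0.24 in Control and -2.12 ± 0.82 in LPS (SD, n = 3), a difference of 0.50 (exact two-sided permutation p = 0.4) that shrank to 0.056 without that sample. With 3 samples against 3 no exact p under 0.1 is possible. This and 6 other shares of miR-142 were tested as 1 family of 7, and the adjusted p of every one was 0.5.

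Both arms had more than 1 main 5′ start, and on the 3p arm the RefSeq start was not the most read in 5 of the 6 samples. In LPS replicate 2 it was, with 39.4% of the reads against 27.4% at position 43. In the Control samples, 47.8% ± 1.29 of the miR-142-3p reads began at position 43, 26.7% ± 0.80 at the RefSeq position 40, 21.05% ± 1.21 at position 41 and 4.38% ± 0.53 at position 42 (SD, n = 3). The most frequent seed on the 3p arm in the Control samples was therefore GUGUUUC and not GUAGUGU of the RefSeq sequence. On the 5p arm of the Control samples, 51.9% ± 2.23 began at the RefSeq position 4, with the seed AUAAAGU, and 46.1% ± 2.27 at position 2, with the seed CCAUAAA. Position 3, between them, fell under the 0.5% of the arm's reads that a start needed to be described. Position 1 held 0.86% and position 5 held 1.05%.

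For a single library, the widest 95% Wilson interval of any start share was 1.19 percentage points to each side. Such intervals cover counting error only, as the reads carry no molecular identifiers. Of the 1679 mature mouse miRNAs in the RefSeq table, a single other one has the seed of the 3p form from position 43, and a single one has that of the 5p form from position 2. They are printed for comparison with the reads above.
mmu-miR-12205-5p: uGUGUUUCccaguugguuuga
mmu-miR-142b: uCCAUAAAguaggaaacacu
The former lies at chr9:88325782-88325802 on the minus strand, and the latter is the mature form of the antisense hairpin, at chr11:87756906-87756925 on the minus strand. Reads of Mir142b itself numbered 1 in Control replicate 3, 1 in LPS replicate 1 and 0 elsewhere. The seeds of the 3p forms from positions 41 and 42, UAGUGUU and AGUGUUU, and of the 5p forms from positions 1 and 5 occur in no RefSeq mature mouse miRNA.

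**Figure D2:**
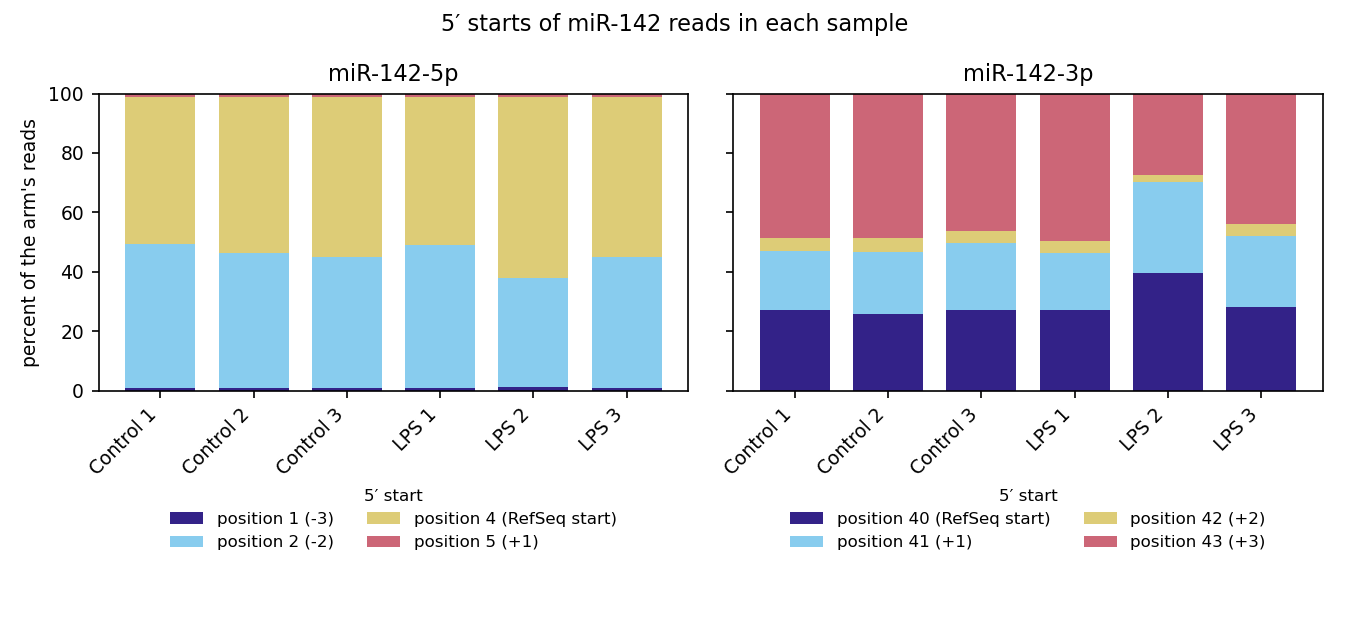
Share of each 5′ start among the reads of miR-142-5p (left) and miR-142-3p (right) in each of the 6 samples, in percent of the arm's reads; the number in brackets is the distance in bases from the RefSeq start. The 5 samples other than LPS replicate 2 look alike, with 43.7% to 49.4% of 3p reads at position 43, against 27.4% in LPS replicate 2.

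In reads, the level of the position 2 form of 5p was of the same order as that of the RefSeq form. It stood at 13148, 11245 and 10605 RPM in the Control samples and at 12938, 6597 and 10263 in the LPS samples. The RefSeq form of 5p stood at 13409, 12929 and 12964 in the Control samples and at 13429, 11031 and 12521 in the LPS samples. Both forms were lowest in LPS replicate 2, where the position 2 form had 0.57 times and the RefSeq form 0.85 times the mean of the other 5 samples.

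On the 3p arm the starts did not move together in that sample. The position 43 form was steady, at 1822, 1913 and 2158 RPM in the Control samples and 1867, 2128 and 2065 in the LPS samples, and LPS replicate 2 lay within the range of the others. The RefSeq form (position 40) stood at 1012, 1017 and 1267 RPM in the Control samples and at 1028, 3059 and 1335 in the LPS samples. The position 41 form ran parallel to it, at 748, 820 and 1042 RPM in Control and at 719, 2379 and 1118 in LPS. The excess of miR-142-3p in LPS replicate 2 thus lay in the forms from positions 40 and 41, which were 2.70 and 2.67 times the mean of the other 5 samples there, against 1.08 for position 43 and 1.03 for position 42.

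**Figure D3:**
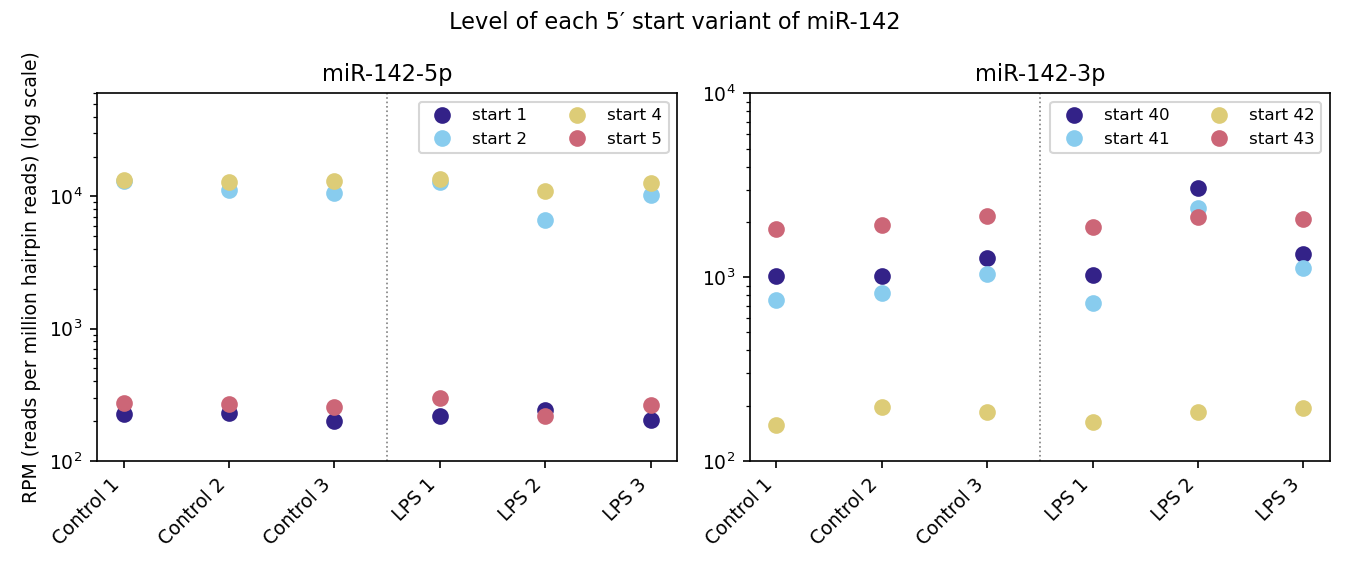
Level of each 5′ start variant of miR-142-5p (left) and miR-142-3p (right) in each sample, in RPM on a log axis; a dotted line parts Control from LPS. In LPS replicate 2 the 3p forms from positions 40 and 41 lay above the position 43 form, at 3059 and 2379 against 2128 RPM, and the 5p form from position 2 was at its lowest, 6597.

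The start variants were also tested as features of their own, together with those of all other arms, in edgeR. Of 505 variants that passed the count filter, 0.0% were called higher and 0.0% lower at the adjusted threshold, and 9 higher (1.78%) and 1 lower (0.198%) at an unadjusted p under 0.05. DESeq2 and limma-voom called 0 of them as well. The largest log2 fold changes among those of miR-142 were 0.74 for the 3p start at 40 (SE 0.41, 95% interval -0.23 to 1.71) and 0.72 for the 3p start at 41 (SE 0.43, 95% interval -0.29 to 1.73), both with an edgeR adjusted p of 0.995. Without LPS replicate 2 they were 0.070 and 0.040. The 3p start at 43 differed by 0.050 (SE 0.12, 95% interval -0.24 to 0.34), the 5p start at 2 by -0.23 (SE 0.26) and the 5p start at 4 by -0.083 (SE 0.13), all with the same adjusted p from edgeR. Without LPS replicate 2 these were -0.029, -0.036 and -0.043.

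As shares within the arm, which need no library normalization, the most read 3p start (position 43) took 47.8% ± 1.29 in Control and 40.2% ± 11.4 in LPS (SD, n = 3), a difference of -7.64 percentage points that did not pass the exact permutation test (p = 0.4) and was -1.26 without LPS replicate 2. The most read 5p start took 51.9% ± 2.23 and 54.9% ± 5.59 (SD, n = 3), a difference of 2.95 percentage points (exact permutation p = 0.5) that turned to -0.081 without that sample. With pair 2 left out, an alternative added after the data were seen, the mean paired differences were -0.96 for 3p and 0.14 for 5p.

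The 5′ start of a read went with its 3′ end. Of the Control reads of miR-142-3p that began at position 43, 91.0% ± 0.67 ended at position 64, and of all 3p reads that ended there, 99.6% began at position 43. Reads that began at the RefSeq base ended mostly at position 62 (65.9% ± 1.33) or 61 (24.6% ± 1.31), and those from position 41 ended at 62 (46.8% ± 3.56) or 63 (45.4% ± 4.38). On the 5p arm, 85.9% ± 0.72 of the reads from position 4 ended at position 24, whereas reads from position 2 were split between ends at 21 (43.7% ± 1.24) and 23 (45.5% ± 1.23). The 3p form from position 43 was thus shifted at both ends, whereas the forms from positions 40 and 41 shared the end at 62. The mean length of the matched part was 20.99 nt for 5p and 22.2 nt for 3p in the Control samples. The end given here is the last matched base, and an added base that equals the next hairpin base cannot be told from it. A T added to the 3p form of positions 41 to 62 gives the read of positions 41 to 63. Likewise, an A added to the 5p form of positions 4 to 24 gives that of positions 4 to 25.

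When the hairpin was folded with RNAfold (minimum free energy -26.9 kcal/mol, 44 paired bases), the positions of each of the 20 base pairs in the stem summed to 64. Extended by the same sum to the ends of the reads, the fold sets the forms against each other as follows. The 3p form of positions 43 to 64 and the 5p form of positions 2 to 23 would pair with 2 bases left over at each 3′ end, and with the 5p end at 21 in place of 23 none would be left at the loop. The RefSeq 5p form (4 to 24) and the 3p form of positions 42 to 62 would also leave 2 at each 3′ end. With the 3p forms of 41 to 62 or 40 to 62, that 5p form would leave 2 bases at the base of the hairpin and 1 or 0 at the loop. The 5p form of positions 4 to 25 and the 3p form of 41 to 62 would again leave 2 at each 3′ end. An overhang of 2 bases at the 3′ end is the mark that Drosha and Dicer are known to leave. This is a geometry of the predicted fold, and which strands were paired in the cells was not measured.

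**Figure D4:**
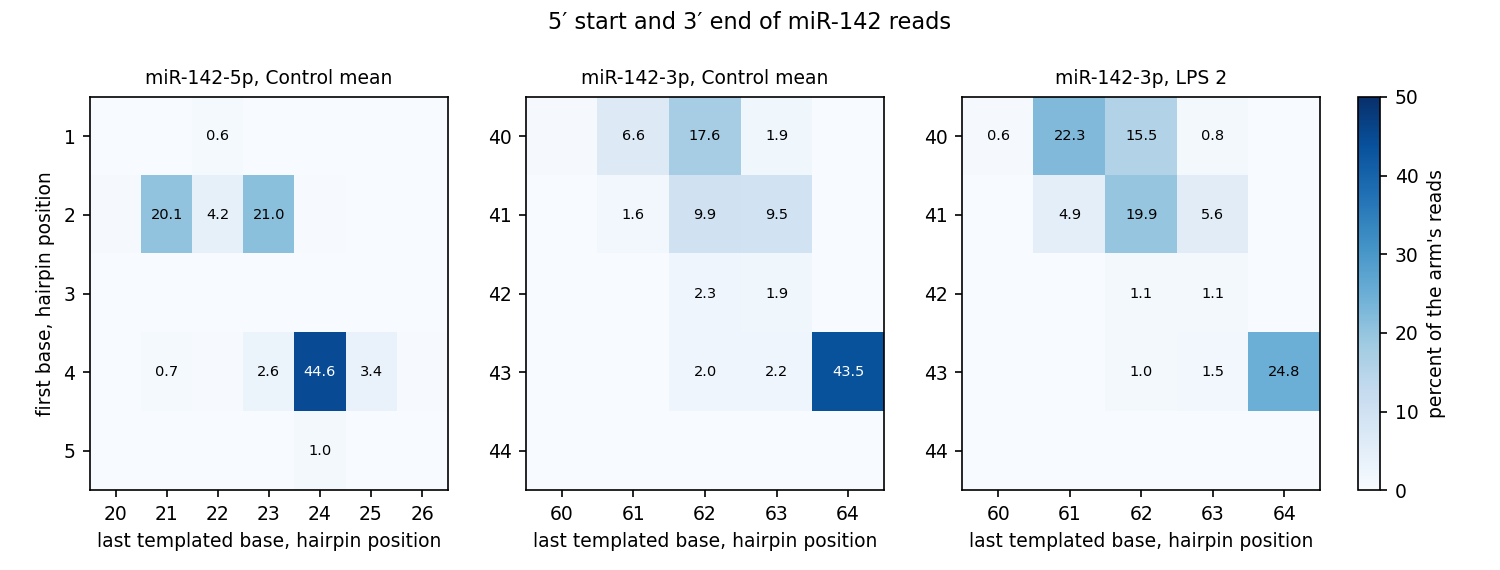
Share of reads by first base (rows) and last matched base (columns) of the read, as hairpin positions, in percent of the arm's reads; values of 0.5 and above are printed. In the Control mean 43.5% of the 3p reads ran from 43 to 64 and 17.6% from 40 to 62, and in LPS replicate 2 these were 24.8% and 15.5%, with 22.3% from 40 to 61.

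LPS replicate 2 differed from the others at the 3′ ends as well as at the starts. The 22-nt read of positions 40 to 61, printed last above, made up 2.98%, 2.66% and 3.34% of the 3p reads in the Control samples and 2.86%, 17.2% and 3.63% in the LPS samples. Among reads from position 40, the end at 61 was taken by 56.6% in LPS replicate 2 and by 23.1% to 27.9% in the other samples. Among reads from position 41, the end at 63 was taken by 18.4% there against 40.5% to 49.1%. On the 5p arm the opposite held for the reads from position 4, of which 13.9% matched up to position 25 against 5.27% to 7.59%. Reads from position 2 instead ended earlier in LPS replicate 2. Of these, 50.7% ended at position 21 against 42.6% to 45.1%, and 37.7% at position 23 against 44.2% to 46.8%. The 43-to-64 coupling was kept, at 90.5% of the reads from position 43. The most read 3p end (position 64) took 43.7% ± 0.90 in Control and 36.4% ± 10.2 in LPS (difference -7.27 percentage points, exact permutation p = 0.4), and the most read 5p end (position 24) took 45.9% ± 1.91 and 47.5% ± 2.78 (difference 1.56, exact permutation p = 0.5). Without LPS replicate 2 these differences were -1.53 and 0.13.

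Bases that do not match the hairpin at the 3′ end, such as the uridines and adenosines that terminal transferases add to small RNAs, were more frequent on the 3p arm. They were present in 17.2% ± 0.41 of the miR-142-3p reads in Control and 17.8% ± 0.61 in LPS, against 3.20% ± 0.17 and 3.11% ± 0.057 of the miR-142-5p reads (SD, n = 3). The group differences were 0.63 percentage points for 3p (exact permutation p = 0.2) and -0.089 for 5p (exact permutation p = 0.5). Without LPS replicate 2, which had 18.3% and 3.10%, they were 0.38 (exact permutation p = 0.4) and -0.084. The share of tailed reads varied with the form. In the Control samples it was 18.8% of the 3p reads from position 40, 32.3% from 41, 36.9% from 42 and 7.73% from 43, with the flanking genomic bases taken as matched, and 6.22% of the 5p reads from position 2 against 0.59% from position 4. A single T was the tail of 49.3% of the tailed 3p reads, and CT made up 16.2%, A 9.58% and C 8.87%. On the 5p arm A (35.7%), T (26.7%) and C (25.6%) were nearer to each other. An added base that equals the next template base was counted as matched, and that base differs between the ends. For 5p reads that end at position 24 it is A, so an A added there was not seen as a tail. The differences in tailed share between forms and between arms were not corrected for this. LPS replicate 2 lay outside the range of the other samples in several of these shares. Tailed reads made up 26.9% of its 3p reads from position 41, against 30.3% to 32.9%, and 7.39% of its 5p reads from position 2, against 5.77% to 6.62%. Of its tailed 3p reads 5.57% carried CT, against 14.1% to 19.8%, and 9.48% carried AA, against 2.95% to 5.32%.

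Such mixed starts were unusual in these libraries. Over 140 arms whose mean reached 100 RPM, the most read 5′ start took a median of 98.7% of an arm's reads, and it took over 90% in 112 of them. The most read start was taken as the one with the largest mean share over the samples. For miR-142-3p (position 43) it held 44.0%, the 2nd lowest share, and for miR-142-5p (position 4) it held 53.4%, the 5th lowest. In single samples miR-142-3p ranked 1 to 5 and miR-142-5p ranked 5 to 9 from the bottom. Under 60% were 7 arms in all, among them Mir1843a/b-5p at 37.7%, Mir425-3p at 46.7% and Mir140-3p at 49.7%, and 7 arms had at least 3 starts with over 5% of their reads. miR-223-3p and miR-21a-5p had 94.2% and 99.2% at their most read start.

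**Figure D5:**
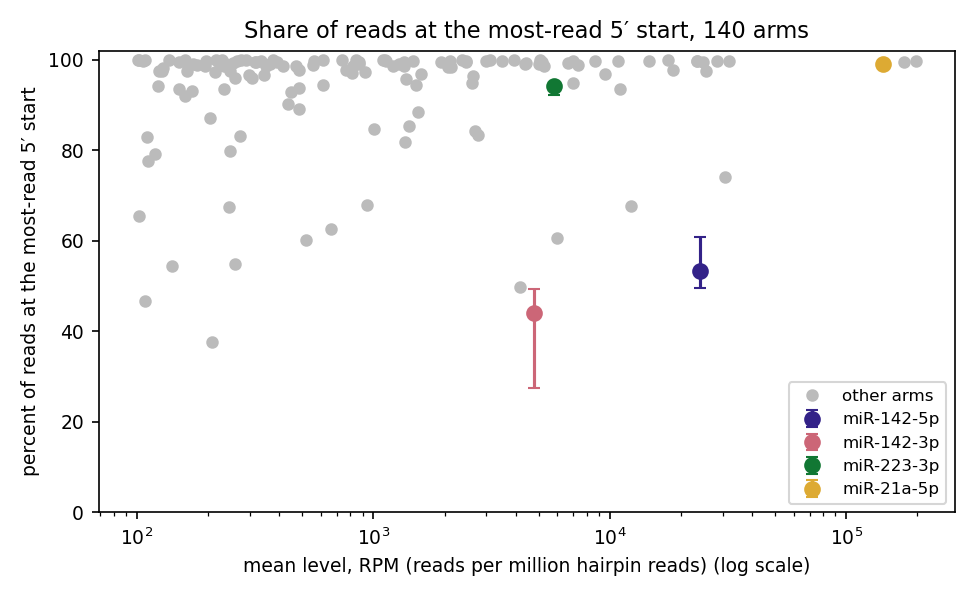
Share of reads at the most read 5′ start against the mean level (RPM, log axis) for the 140 arms whose mean reached 100 RPM. Points are means over the 6 samples, and the bars of the 4 named arms run from the lowest to the highest sample. Most arms lie near 100% (median 98.7%), whereas miR-142-3p (44.0%) and miR-142-5p (53.4%) lie among the lowest.

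Almost no other product of the hairpin was seen. Reads that began in the loop numbered 0, 1 and 2 in the Control samples and 4, 0 and 2 in the LPS samples. Further reads that matched the hairpin with its flanks but were not assigned to it numbered 6 to 18 in the samples other than LPS replicate 2. In that one they numbered 77, and across all 6 they equalled 0.012% to 0.033% of the miR-142 reads. Reads with up to 3 bases past the end of the hairpin were assigned to it and are not among them. Shorter reads of 15 to 17 nt, which were left out of the levels, would have added 0.058% to 0.092% to the 5p arm and 0.021% to 0.074% to the 3p arm.

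The arms whose pattern over the 6 samples was most like that of miR-142-3p, by the root mean square difference of centred log2 levels among 139 other arms, were Mir140-3p (0.070), Mir29c-3p (0.076) and Mir339-3p (0.096), against a median of 0.41 over all of them. Those most like miR-142-5p were Mir191-5p (0.031), Mir151-5p (0.055) and Mir27b-3p (0.061), against a median of 0.26. The arms of miR-142 were far from each other on this measure, at 0.55, which ranked miR-142-5p 116 for miR-142-3p. The measure is a description over 6 samples, in which LPS replicate 2 carries most of the differences.

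Other miRNAs of the haematopoietic lineages were read as a list of 16 arms, of which 15 had reads and 12 passed the count filter. The list includes miR-126a-3p, which also serves below as the endothelial marker. None of the 12 was called higher or lower by edgeR, and their median log2 fold change was -0.0036 against 0.0029 over all arms tested. Of the 12 values 6 were positive. miR-223-3p, which restrains granulocyte production and activity, differed by -0.043, and miR-342-3p by 0.45. miR-155-5p, a miRNA induced by inflammatory signals, differed by 0.89 and stood at 49.0 to 75.3 RPM in 5 samples and at 212 in LPS replicate 2. miR-146a-5p (Mir146-5p), a brake on Toll-like receptor signalling, had the largest value of the list, 2.43, with an edgeR adjusted p of 0.994, and stood at 2822 to 4515 RPM in 5 samples and 55426 in LPS replicate 2. Without that sample edgeR again called 0 of the 12 arms. The median log2 fold change was then -0.058 against -0.026 over all arms tested. The values were -0.059 for miR-223-3p, -0.057 for miR-342-3p, 0.11 for miR-155-5p, -0.16 for miR-146a-5p and 0.039 for miR-146b-5p.

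Some markers of epithelium, lymphoid cells and liver were higher in LPS replicate 2 than in the other samples, all at low levels. The 6 epithelial arms (miR-200a, miR-200b, miR-200c, miR-141, miR-429 and miR-205) all had reads and summed to 76.6 to 96.8 RPM in the Control samples and to 80.2, 168 and 90.7 in the LPS samples. In LPS replicate 2, miR-200a-3p (43.7 RPM), miR-200b-3p (57.9) and miR-200c-3p (29.6) were above all other samples, while miR-141-3p (20.6), miR-429-3p (15.9) and miR-205-5p (0.18) lay within their range. The lymphoid marker miR-150-5p stood at 14.9 to 23.2 RPM in Control and at 15.1, 49.2 and 20.02 in LPS, and the liver marker miR-122-5p at 0 to 0.42 and at 0, 1.83 and 0. Of the 4 arms for fibroblasts and smooth muscle 3 had reads, summing to 9.30 to 10.9 RPM in Control and 6.00 to 11.99 in LPS. The endothelial marker miR-126a-3p stood at 4.003 to 7.19 RPM over all samples, and the neuronal list, of which miR-9-5p alone had reads, at 2.11 to 2.35 in Control and at 3.16, 0.37 and 3.34 in LPS. The muscle list (1 of 3 arms with reads) and the erythroid list (1 of 2) reached at most 0.58 RPM in any sample. In these lists miR-144-3p (erythroid), miR-1a-3p and miR-206-3p (muscle), miR-124-3p (neurons) and miR-145a-5p (fibroblasts and smooth muscle) were at 0 in all libraries. The other members had reads, counted over all libraries together. These were 7 for miR-451a-5p (erythroid), 4 for miR-133a-3p (muscle) and 34 for miR-9-5p (neurons). In the list for fibroblasts and smooth muscle they were 57 for miR-143-3p, 163 for miR-199a-3p and 10 for miR-214-3p. The 4 blood-cell arms, miR-142 included, summed to 34469 to 36505 RPM in Control and to 36373, 31775 and 34004 in LPS. Most of each sum was miR-142 itself, at 28647 to 30826 RPM in Control and at 30694, 25864 and 28003 in LPS. The sum is thus no separate measure of blood cells. In LPS replicate 2 miR-223-3p (5699 RPM) lay within the range of the other samples and miR-155-5p (212 RPM) above it. The part of these markers, of depth and of the library itself in the miR-142 values of LPS replicate 2 was not tested. Fewer cells of a type and less RNA per cell cannot be told apart in such bulk samples.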

How the data were processed

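Small RNAs of 6 samples of BMMs (3 Control, 3 LPS, grouped by their titles) were sequenced by the authors after preparation with a TruSeq small RNA kit on an Illumina HiSeq, and the adaptor was trimmed with perl scripts and Btrim64. The authors deposited raw counts of each distinct trimmed read of 11 to 40 nt, with no miRNA name, coordinate or normalization. The labels name the build mm9, which the files do not use. Their miRNA table was not used here. The 1174 mouse miRNA hairpins of GENCODE M21 (GRCm38) whose names begin with Mir served as reference. A read of 18 nt or more was assigned where it matched exactly except for up to 3 bases at its 3′ end. Arms sharing at least 50% of their reads were merged, and RefSeq mature sequences gave the reference ends. Counts were filtered (filterByExpr), TMM-normalized and tested with edgeR 4.0.16 (quasi-likelihood, R 4.3.3, Benjamini-Hochberg, threshold 0.05), after a check on simulated data. The simulated data had the same spread for every feature and no library set apart as LPS replicate 2 is. They therefore do not tell how large a change could be found in these samples. Shares were compared by exact permutation tests (scipy 1.17.1), and the hairpin was folded with RNAfold 2.7.2.

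Alternatives tried were limma-voom (limma 3.58.1), DESeq2 1.42.0, upper-quartile normalization, library totals, other count filters, the replicate block, each sample left out, reads of at least 20 nt, no unmatched 3′ bases and 1 mismatch. By the data, the samples numbered 1 and those numbered 3 formed pairs, whereas those numbered 2 did not clearly do so. Over the arms, deviations from the group means correlated by 0.27 to 0.66 between same-numbered samples and by -0.43 to 0.18 between others. Such deviations are tied within a group, so the correlation of pair 2 depends on the others. Its chi-square per degree of freedom was 674, against 64.9 to 75.1 between Control replicate 2 and the remaining samples. The text names both arms, each start with at least 0.5% of its arm, the most read sequences, miR-223-3p and miR-21a-5p, 2 fixed lists (haematopoietic and other cell types) and the 3 arms most like each arm. Members, lists and tests were chosen with earlier results of these data known. The libraries of 2201520 to 17691405 reads put at least 41971 reads behind each sample's miR-142 values.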

Additional observations from a re-analysis of the deposited data

How the results depend on the processing

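Over 19 results and 295 alternatives, 275 values kept their direction and their side of the threshold. No share could pass 0.05 in any of its alternatives, so for the shares only a change of direction could be seen. The log2 fold change of the miR-142-3p level ran from -0.0039 (without LPS replicate 2) to 0.56 when each sample was left out, and that of miR-142-5p from -0.35 to -0.055. The difference in the most read 5p start share ran from -0.081, again without LPS replicate 2, to 5.43 percentage points. Small log2 differences of start variants changed sign. The 3p start at 42 was -0.069 with upper-quartile normalization, -0.0017 with no unmatched 3′ bases and -0.054 to 0.077 with samples left out. The 3p start at 43 was -0.032 with upper-quartile normalization, -0.029 with a replicate block over pairs 1 and 3, and -0.029 to 0.086 with samples left out. The 5p start at 1 was -0.050, -0.027 and -0.073 to 0.13 under the same settings, and the 5p start at 5 was 0.074 with that block and -0.16 to 0.051 with samples left out. With no count filter edgeR called 21 of 973 arms and 31 of 2806 start variants in place of 0, all higher in LPS, among them the 3p start at 40 with 0.74 (edgeR adjusted p = 0.0498; 0.0498 to 1.00 over all its alternatives). The cause of these shifts was not tested. The replicate block itself changed no call.

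With 3 samples a group, exact tests cannot go below p = 0.1, and the 3p interval was wider with LPS replicate 2 than without it. Shares of forms with different ends compare reads, and how ligation and amplification weigh such ends was not tested.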

Other observations

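Reads with 1 internal mismatch to the hairpin were not counted in the levels. They amounted to 0.837% ± 0.051 of the miR-142-5p reads and 1.03% ± 0.072 of the miR-142-3p reads in Control (SD, n = 3). The substitution with the largest share of its own arm in Control, A43G (hairpin base, position from 1 at the hairpin's 5′ end, read base), lies at the first base of the 3p form of positions 43 to 64. It was found in 0.224% ± 0.077 of the 3p reads in Control and 0.101% ± 0.040 in LPS, while C4G was found in 0.118% ± 0.015 of the reads of the larger 5p arm in Control. In LPS replicate 2 A43G, at 0.057%, was below C4G, at 0.075%. It was singled out after its values were seen, and neither this difference nor the share that sequencing errors contribute was tested.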
